A study of Mus musculus with 6 samples.

Results

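The genes described here encode the subunits of voltage-gated sodium channels, voltage-gated calcium channels and hyperpolarization-activated HCN channels. They were taken by symbol from the gene tables of 6 RNA-seq libraries and number 36 of 55357 genes. They comprise 10 sodium channel alpha genes, 4 sodium channel beta genes, 10 calcium channel alpha1 genes, 4 alpha2delta genes, 4 calcium channel beta genes and 4 HCN genes. Among these, 34 had more than 6 reads in at least 1 library. The other 2, *Scn4a* and *Scn10a*, had 6 or fewer reads in all libraries.

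The alpha and alpha1 subunits of these channels form the pore and carry the voltage sensor. Sodium channels at the axon initial segment start the action potential and those along the axon carry it, with beta subunits that tune their gating and surface level. Calcium channels of the Cav2 family open at the nerve terminal and trigger transmitter release, those of the Cav1 family signal from the soma and dendrites to the nucleus, and those of the Cav3 family open near the resting potential and support burst firing. The alpha2delta and beta subunits of calcium channels promote their delivery to the membrane. HCN channels open on hyperpolarization, pass a mixed sodium and potassium current and set the resting potential and the summation of inputs in dendrites.

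The libraries came from wild type primary neurons of the mouse cortex and hippocampus, which the study cultured from C57BL/6N embryos. For 3 libraries the cultured neurons had received at DIV4 (days in vitro) a lentivirus expressing a scrambled shRNA (shCtrl). For the other 3 they had received a lentivirus expressing sh2, an shRNA against *Pla2g4e* (sh*Pla2g4e*). RNA for all 6 was collected at DIV14. *Pla2g4e* encodes a cytosolic phospholipase A2 that works as a calcium-dependent N-acyltransferase in the brain. The comparison asks how the transcriptome differs when *Pla2g4e* is lowered, and it rests on 1 shRNA sequence, on virus-treated cultures only and on cultures of mixed cell types. Nothing in the labels says whether the libraries of a group came from separate cultures or dissections, so that p-values measure the spread between these samples, which may be technical.

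Levels are given as CPM, counted reads scaled to a common library size with the TMM factors of edgeR, and fold changes are sh*Pla2g4e* over shCtrl on the log2 scale with their standard error (SE). A gene was called down-regulated or up-regulated at an adjusted p below 0.01 in edgeR's quasi-likelihood test with Benjamini-Hochberg adjustment over 21876 genes, and the verbs rose and fell are kept for these genes. Libraries held between 17054717 and 23570180 counted reads, and the channel genes took 0.383% to 0.419% of them. The targeted gene *Pla2g4e* had 38.0, 35.1 and 35.4 CPM in shCtrl replicates 1 to 3 and 21.8, 14.1 and 18.7 CPM in sh*Pla2g4e* replicates 1 to 3, so that 50.5% was left (log2 fold change −0.99, SE 0.13, adjusted p = 1.24e-04 by edgeR).

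The labelled cell type was checked with marker lists. The summed level of 12 pan-neuronal markers was 5861 to 6407 CPM in shCtrl and 5420 to 5899 CPM in sh*Pla2g4e* libraries, so that neuronal RNA was abundant in all 6. The sum was lower in each sh*Pla2g4e* library than in the shCtrl library of its number, and 3 of the 12 markers fell while 2 rose (4 and 3 with the block). Those of glutamatergic neurons summed to 2154 to 2342 and 1608 to 1893 CPM. Of these 8 markers 2 fell and 1 rose (3 and 2 with the block), with a median log2 fold change of 0.05. By DESeq2, 3 of them were called lower and 0 higher. The mean sum differed by about as much as the vesicular glutamate transporter gene *Slc17a7* alone, which had means of 744.8 ± 97.0 and 299.6 ± 11.2 CPM (SD, n = 3), whereas *Slc17a6*, another such transporter, had 47.3 ± 12.6 and 88.3 ± 23.8 CPM (SD, n = 3). Markers of other cells were present too, and those of progenitors summed to 151 to 187 and 131 to 178 CPM. Astrocyte markers summed to 2978 to 3805 CPM in shCtrl and 2051 to 3244 CPM in sh*Pla2g4e* libraries, and those of the oligodendrocyte lineage to 572 to 648 and 588 to 724 CPM. Microglial markers summed to 6.45 to 15.2 and 3.70 to 7.77 CPM, with *Tmem119* and *Itgam* at 4 or fewer reads. Endothelial and mural markers summed to 27.6 to 72.1 and 32.2 to 78.1 CPM, with *Cldn5* and *Kcnj8* at 0. In such bulk libraries, fewer cells of a type and less RNA per cell cannot be told apart.

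The shRNA and the stretches of channel mRNA that match its seed are shown because a guide can lower other transcripts through bases 2 to 8 of its own sequence. Capitals mark the seed in the guide and, in the target and the channel mRNAs, the bases that pair with it, GTGGCCA, which was searched on the transcript strand alone. The target lies in exon 11 of *Pla2g4e*, in the coding sequence (GRCm38, chr2:120182753-120182771, minus strand). The channel stretches are from 3′ UTRs, taking for each gene its longest protein-coding transcript in GENCODE vM21 (GRCm38), and hold 11 bases on each side of the match.
sh2 guide: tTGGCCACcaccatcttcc
sh2 target: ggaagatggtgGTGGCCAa
*Cacna1e*, chr1:154396442-154396470, minus strand: agttcatccatGTGGCCAcattcatctgc
*Cacna1g*, chr11:94408884-94408912, minus strand: agatgcccagtGTGGCCAaggctctcgac
*Cacnb4*, first site, chr2:52433560-52433588, minus strand: ccagcagagatGTGGCCAgagctcccggg
*Cacnb4*, second site, chr2:52430562-52430590, minus strand: aagggcatgctGTGGCCActgggtaagga
*Hcn4*, chr9:58862330-58862358, plus strand: gaggaaggtgcGTGGCCAgtggtgggctt
*Scn2b*, chr9:45128457-45128485, plus strand: tgcagctttgaGTGGCCAgttttcatcac

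Together with *Cacna1s*, which is low in these cultures, these were the channel genes with such a match in that UTR, 6 of the 35 tested (17.1%). Over all 15656 tested genes with a 3′ UTR the share was 13.4%, and among the 7718 genes whose UTR length lay between the quartiles of the channel genes, 786 and 3388.5 nt, it was 15.5%. None of the 6 was called in either direction by edgeR, voom or DESeq2, and 1 (*Cacna1s*, higher) had an unadjusted p below 0.05. The 4 down-regulated and 3 up-regulated channel genes described next hold no match in this UTR, whereas, of the called genes with a 3′ UTR, 43.0% of the down-regulated and 7.10% of the up-regulated ones do. Matches in coding sequence were found in all 7 called channel genes, from 1 in *Scn1a*, *Scn2a*, *Cacna1h* and *Cacna2d3* to 3 in *Cacna1b*. *Scn8a* and *Cacnb2* hold a match in the UTR of another annotated transcript.

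Of the 35 channel genes tested, 4 were down-regulated (*Scn1a*, *Scn2a*, *Cacna1a* and *Cacna1b*) and 3 were up-regulated (*Scn7a*, *Cacna1h* and *Cacna2d3*). The background over all genes was 4.0% down-regulated and 2.48% up-regulated, and at an unadjusted p below 0.05 it was 12.9% lower and 12.8% higher. The other 28 did not pass the test. Fold changes were below 0 for 17 genes and above 0 for 18, with a median of 0.05, beside a median of 0.03 over all genes tested. For 19 channel genes the ranges of both groups did not overlap, 10 of them lower in sh*Pla2g4e* and 9 higher, whereas 30.0% of all genes tested did not overlap. The libraries carry replicate numbers, and those of the same number deviated together from their group means. When edgeR was given that number as a block, 10 channel genes were down-regulated and 6 up-regulated, beside 9.02% and 6.5% of all genes. The block added, among others, *Scn3a*, *Scn8a*, *Cacna1i*, *Cacnb3* and *Hcn2* to the down-regulated genes and *Scn11a*, *Scn3b* and *Scn4b* to the up-regulated ones.

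**Figure D1:**
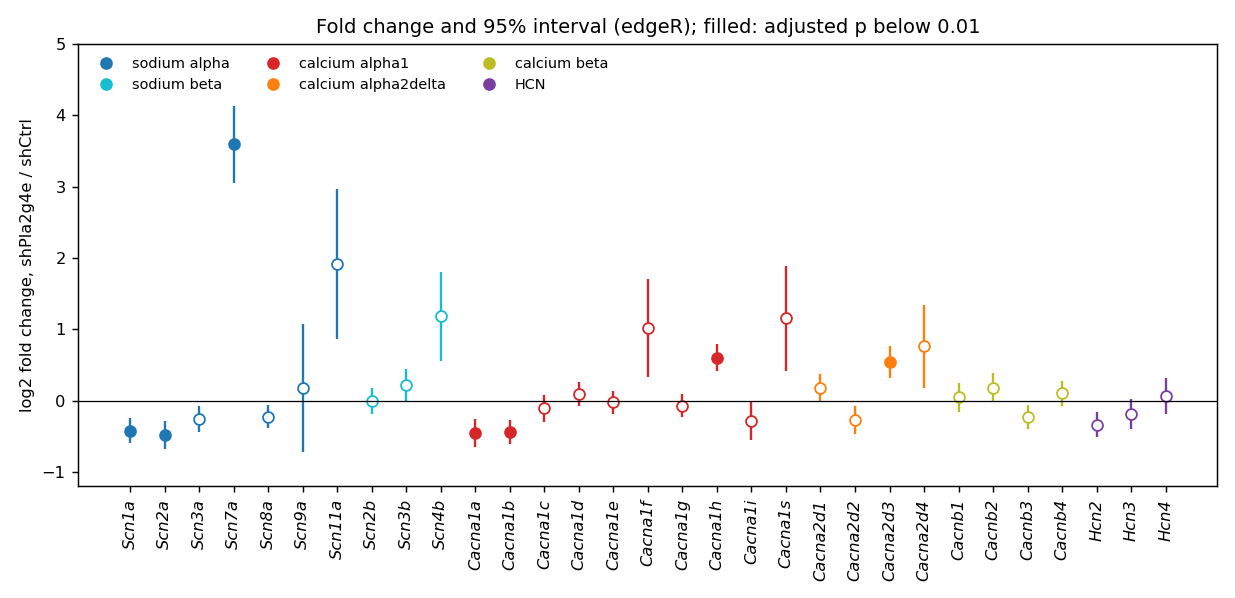
Log2 fold change of the channel genes (sh*Pla2g4e* over shCtrl, y axis) with its 95% interval from edgeR, coloured by subunit class. Filled points passed an adjusted p of 0.01. *Scn7a* stands at 3.60, above all others. Some genes are not drawn, among them *Scn4a*, which was not tested, and *Scn10a*, whose interval runs from −4.03 to 2.20.

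Among the sodium channel alpha genes, *Scn2a* and *Scn1a* fell in sh*Pla2g4e* cultures. *Scn2a* encodes Nav1.2, the main sodium channel of young excitatory axons, and is the most abundant of the alpha genes here, per kb of exon. Its level was 396, 362 and 320 CPM in shCtrl and 279, 245 and 249 CPM in sh*Pla2g4e* libraries. All sh*Pla2g4e* libraries lay below all shCtrl libraries. The means were 359.4 ± 38.5 CPM and 257.8 ± 18.9 CPM (SD, n = 3), and 71.7% was left (log2 fold change −0.48, SE 0.09, adjusted p = 0.00228 by edgeR). The adjusted p went to 0.0124, 0.0191 and 0.0121 when shCtrl replicate 1, shCtrl replicate 2 or sh*Pla2g4e* replicate 2 was left out. About 5.76% of the 50-base stretches of its transcripts also occur in other genes, among them *Scn1a*, *Scn3a* and *Scn9a*, and reads confined to them cannot be assigned to 1 gene.

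*Scn1a* encodes Nav1.1, which is best known from the axon initial segment of inhibitory interneurons. It had 116, 107 and 126 CPM in shCtrl and 91.2, 84.4 and 86.0 CPM in sh*Pla2g4e* libraries, again without overlap. Means were 116.5 ± 9.38 and 87.2 ± 3.56 CPM (SD, n = 3), a log2 fold change of −0.42 (SE 0.08, adjusted p = 0.00312 by edgeR). This call was lost by a narrow margin with scaling to library size alone (adjusted p = 0.0110 by edgeR) and without shCtrl replicate 1, shCtrl replicate 3, sh*Pla2g4e* replicate 1 or sh*Pla2g4e* replicate 2 (0.0105, 0.0112, 0.0105 and 0.0142). Beside it, the summed level of 14 GABAergic markers was 1254 to 1357 CPM in shCtrl and 1064 to 1217 CPM in sh*Pla2g4e* libraries, and 3 of the markers fell while 2 rose (4 and 3 with the block). Their part in the result was not tested.

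*Scn8a* encodes Nav1.6, the channel that takes over the axon initial segment and nodes as neurons mature. Its libraries did not overlap, with 286, 277 and 266 CPM in shCtrl and 244, 226 and 240 CPM in sh*Pla2g4e* (log2 fold change −0.22, SE 0.08, adjusted p = 0.0661 by edgeR, 0.00472 with the replicate block). *Scn3a* encodes Nav1.3, the embryonic form. It had 111, 113 and 102 CPM in shCtrl and 99.3, 89.7 and 83.1 CPM in sh*Pla2g4e* libraries, also without overlap (log2 fold change −0.26, SE 0.09, adjusted p = 0.0600 by edgeR, 0.00269 with the replicate block). The fold changes of the 4 abundant alpha genes thus all lay below 0, and the 95% intervals of their sizes overlapped each other (−0.67 to −0.29 for *Scn2a*, −0.59 to −0.24 for *Scn1a*, −0.38 to −0.06 for *Scn8a* and −0.44 to −0.08 for *Scn3a*). Whether their fold changes differ from each other was not tested.

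**Figure D2:**
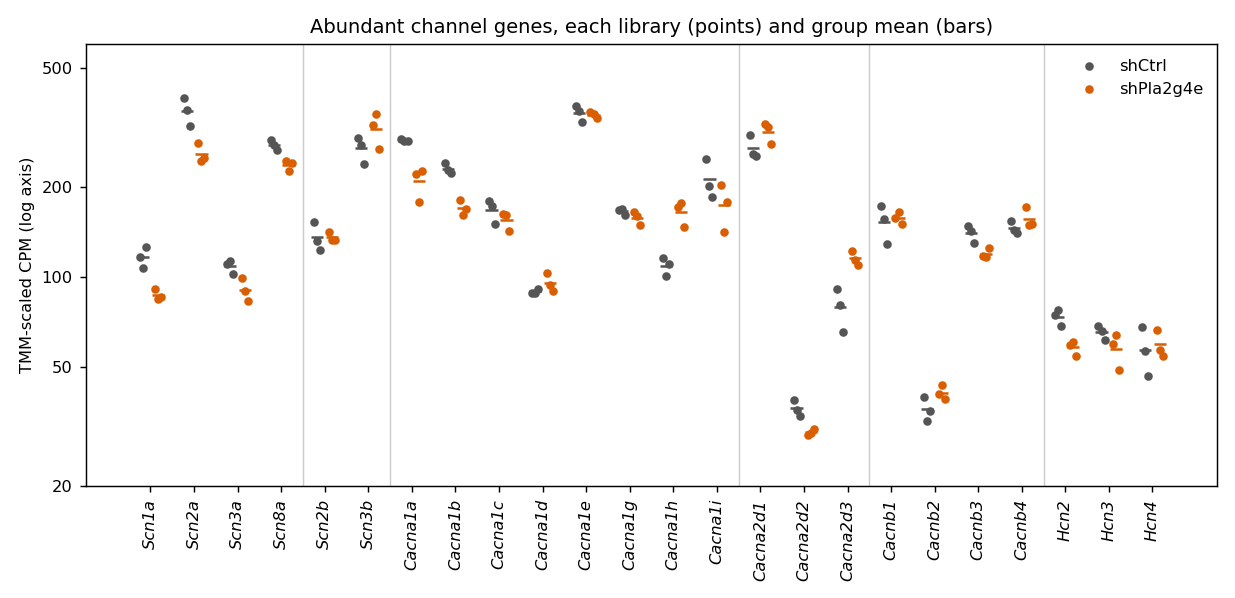
TMM-scaled CPM (log axis) of 24 channel genes with a mean of at least 8 CPM, in each shCtrl (grey) and sh*Pla2g4e* (orange) library, with short bars for group means and vertical lines between subunit classes. The points of *Scn1a*, *Scn2a*, *Cacna1a* and *Cacna1b* are lower in all sh*Pla2g4e* libraries, and those of *Cacna1h* and *Cacna2d3* higher.

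*Scn7a* moved the other way and by far more than any other channel gene. It encodes Nax, an atypical member of the family that is not gated by voltage in the usual way and is known as a sodium level sensor of glia and some neurons. Reads numbered 13, 14 and 26 in the shCtrl libraries and 200, 258 and 180 in the sh*Pla2g4e* libraries. In CPM these were 0.631, 0.705 and 1.15 against 8.37, 11.9 and 10.3. The gene was near the floor of detection in all shCtrl libraries and clearly read in all sh*Pla2g4e* libraries. Means were 0.830 ± 0.284 and 10.2 ± 1.78 CPM (SD, n = 3), with a log2 fold change of 3.60 (SE 0.25, adjusted p = 3.31e-07 by edgeR). Among the 543 up-regulated genes, *Scn7a* ranked 7 by p and 14 by size of change. It stayed up-regulated when any library was left out, with log2 fold changes of 3.43 to 3.92. No 50-base stretch of its transcripts occurs in another gene, and no exon overlaps one.

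*Scn7a* lies at chromosome 2, 66503769 to 66615258 on the minus strand (GRCm39), at one end of a cluster of 5 sodium channel genes, *Scn3a*, *Scn2a*, *Scn1a*, *Scn9a* and *Scn7a*, that spans 1327797 bp. Its nearest channel neighbour, *Scn9a*, lies 38463 bp away and encodes Nav1.7 of peripheral sensory neurons. *Scn9a* had 1.46, 1.11 and 0.888 CPM in shCtrl and 1.76, 0.601 and 1.54 CPM in sh*Pla2g4e* libraries, which overlapped (log2 fold change 0.18, SE 0.42, adjusted p = 0.851 by edgeR). Per kb of exon, the ratio of *Scn7a* to *Scn9a* within a library was 0.754 to 2.26 in shCtrl and 8.29 to 34.5 in sh*Pla2g4e*. On the far side, the muscle gene *Xirp2* at 388920 bp had a log2 fold change of 2.13 but an adjusted p of 0.0941 by edgeR, at a mean of 0.514 CPM. Neighbours in the same stretch of chromosome therefore ranged from down-regulated (*Scn1a*, *Scn2a*) to up-regulated (*Scn7a*).

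The summed astrocyte markers were lower in each sh*Pla2g4e* library than in the shCtrl library of its number, although the ranges of the groups overlapped, and 3 of 10 fell (7 fell and 1 rose with the block). At an unadjusted p below 0.05, 5 of them were lower and 1 was higher. Of 10 oligodendrocyte lineage markers none was called by edgeR, voom or DESeq2 (1 fell with the block), and 1 was lower at an unadjusted p below 0.05. The part of either cell type in the *Scn7a* result was not tested.

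The other alpha genes described here are known mainly from other tissues and were low. *Scn11a*, Nav1.9 of sensory neurons, had 10, 2 and 19 reads in shCtrl and 52, 35 and 30 reads in sh*Pla2g4e* libraries. Its means were 0.4765 ± 0.372 and 1.84 ± 0.298 CPM (SD, n = 3), with a log2 fold change of 1.91 (SE 0.49, adjusted p = 0.0175 by edgeR). All sh*Pla2g4e* values of *Scn11a* were above all shCtrl values, and it passed 0.01 with the block (0.000348), with DESeq2 (0.00720), with no filter on low counts (0.000296) and without shCtrl replicate 3 (0.00710). The log2 fold change was 1.45 to 2.61 with 1 library left out, the highest without shCtrl replicate 3. The muscle gene *Scn4a* had 2, 4 and 4 reads in shCtrl and 2, 2 and 0 reads in sh*Pla2g4e* libraries and was not tested. *Scn10a*, Nav1.8 of sensory neurons, had 6, 2 and 0 reads in shCtrl and 0, 2 and 2 reads in sh*Pla2g4e* libraries, and no fold is given for it.

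Dividing CPM by exon length lets the alpha genes be compared with each other. The sum over the 10 alpha genes was 69.0, 65.1 and 62.0 CPM per kb in shCtrl and 55.6, 50.7 and 51.4 CPM per kb in sh*Pla2g4e* libraries, and so was lower in all sh*Pla2g4e* libraries. Of that sum, *Scn2a* made up 44.7%, 43.2% and 40.0% in shCtrl and 39.1%, 37.5% and 37.7% in sh*Pla2g4e* libraries. *Scn8a* took 26.3% to 27.2% and then 27.9% to 29.6%, so that its share was higher although its level was not. *Scn1a*, at 14.8% to 18.2% and 14.7% to 15.0%, and *Scn3a*, at 12.6% to 13.6% and 12.7% to 14.1%, held overlapping shares. The share of *Scn7a* was 0.125%, 0.147% and 0.254% in shCtrl and 2.05%, 3.21% and 2.73% in sh*Pla2g4e* libraries. The order *Scn2a*, *Scn8a*, *Scn1a*, *Scn3a* was the same in all 6 libraries. These shares are a description without a test.

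**Figure D3:**
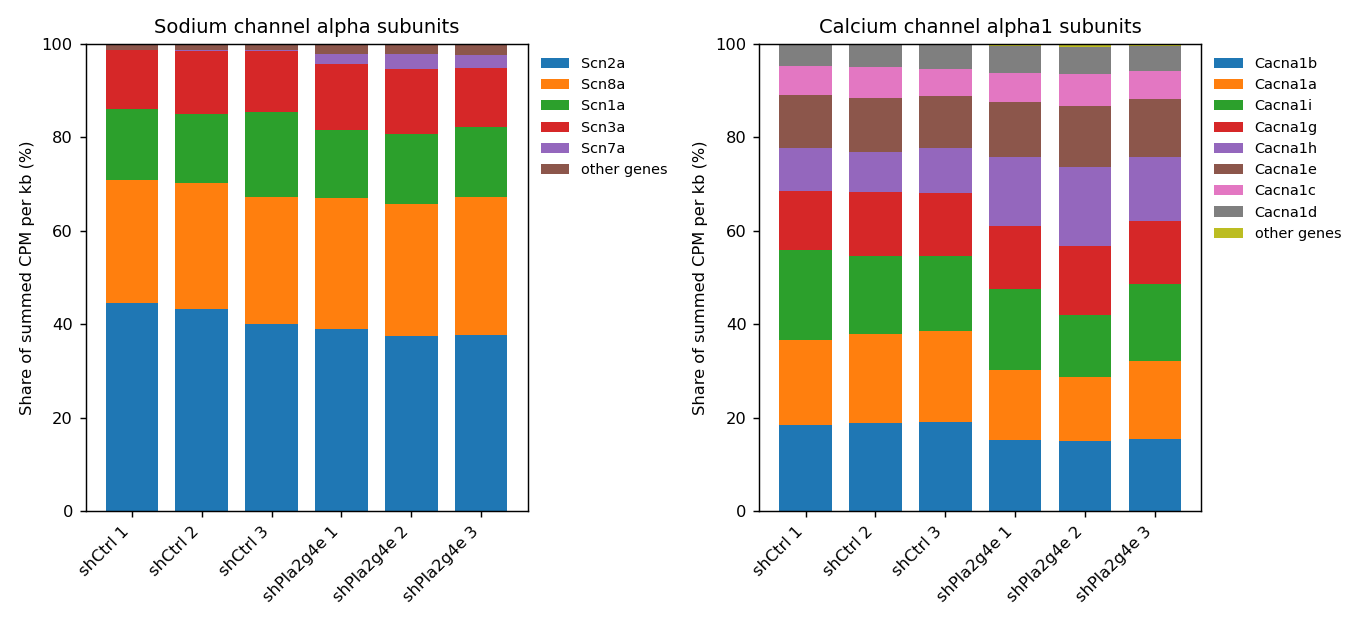
Share of each gene (%, y axis) in the summed CPM per kb of the 10 sodium channel alpha genes (left) and the 10 calcium channel alpha1 genes (right), one bar per library, with genes under 2% in all libraries joined as other genes. The band of *Scn2a* narrows from 40.0% to 44.7% in shCtrl to 37.5% to 39.1% in sh*Pla2g4e* libraries, and that of *Cacna1h* widens from 8.48% to 9.61% to 13.8% to 17%.

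The sodium channel beta genes encode small membrane proteins that join the alpha subunits. None of the 4 passed the test by edgeR, voom or DESeq2, and 2 (*Scn3b* and *Scn4b*, both higher) had an unadjusted p below 0.05. *Scn3b* had 292, 276 and 238 CPM in shCtrl and 323, 350 and 267 CPM in sh*Pla2g4e* libraries, which overlapped (log2 fold change 0.22, SE 0.10, adjusted p = 0.187 by edgeR), but each sh*Pla2g4e* library lay above the shCtrl library of its number and the blocked adjusted p was 0.00655. *Scn2b*, with means of 136.1 ± 15.0 and 135.8 ± 4.56 CPM (SD, n = 3), differed by less than the spread between libraries, and the 95% interval of its log2 fold change was −0.19 to 0.18. *Scn4b*, which supports resurgent sodium current in fast-firing neurons, was low, with 1.26, 1.46 and 1.38 CPM in shCtrl and 2.22, 3.93 and 3.20 CPM in sh*Pla2g4e* libraries. These did not overlap, and the log2 fold change of 1.18 (SE 0.29) had an adjusted p of 0.0137 by edgeR and 0.00140 with the block. *Scn2b* and *Scn4b* lie 8325 bp apart on chromosome 9.

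Among calcium channel alpha1 genes, 2 of the 3 members of the Cav2 family fell. *Cacna1b* (chromosome 2, 24493899 to 24653164, minus strand) encodes the pore of the N-type channel of nerve terminals. It had 240, 227 and 222 CPM in shCtrl and 180, 161 and 168 CPM in sh*Pla2g4e* libraries. The groups were clearly apart, at 230.0 ± 9.37 and 169.7 ± 9.79 CPM (SD, n = 3), and 73.8% was left (log2 fold change −0.44, SE 0.08, adjusted p = 0.00143 by edgeR). The adjusted p was 0.0119 without shCtrl replicate 2.

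*Cacna1a* (chromosome 8, 85065268 to 85366875, plus strand) encodes the pore of the P/Q-type channel, the main trigger of fast release in the mature brain. It had 289, 285 and 284 CPM in shCtrl and 221, 179 and 226 CPM in sh*Pla2g4e* libraries. The shCtrl libraries were almost equal, and sh*Pla2g4e* replicate 2 was the lowest of the other group. Means were 285.9 ± 2.57 and 208.7 ± 26.3 CPM (SD, n = 3), a log2 fold change of −0.45 (SE 0.09, adjusted p = 0.00332 by edgeR). The adjusted p went to 0.0115, 0.0223 and 0.0152 without shCtrl replicate 1, shCtrl replicate 2 and sh*Pla2g4e* replicate 2. About 3.53% of its exon sequence is shared with an antisense gene. The third member, *Cacna1e*, which encodes the R-type channel of spines and terminals, had 373, 359 and 329 CPM in shCtrl and 354, 350 and 339 CPM in sh*Pla2g4e* libraries. These overlapped, and the 95% interval of its log2 fold change ran from −0.19 to 0.14, above the point estimates of *Cacna1a* and *Cacna1b*. Whether its fold change differs from theirs was not tested.

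In the Cav3 family of T-type channels, *Cacna1h* rose. It lies at chromosome 17, 25593259 to 25652757 on the minus strand, and encodes Cav3.2. Levels were 116, 101 and 110 CPM in shCtrl and 172, 177 and 147 CPM in sh*Pla2g4e* libraries. All sh*Pla2g4e* libraries were above all shCtrl libraries, with means of 165.4 ± 16.0 and 109.0 ± 7.76 CPM (SD, n = 3) and a log2 fold change of 0.60 (SE 0.09, adjusted p = 0.000309 by edgeR). The call held when any library was left out. *Cacna1i*, Cav3.3, had 248, 201 and 186 CPM in shCtrl and 203, 141 and 178 CPM in sh*Pla2g4e* libraries, which overlapped (log2 fold change −0.29, SE 0.12, adjusted p = 0.155 by edgeR). Within replicate numbers its log2 ratios were −0.29, −0.52 and −0.06, and the blocked adjusted p was 0.000574. *Cacna1g*, Cav3.1, had 168, 169 and 161 CPM in shCtrl and 164, 159 and 149 CPM in sh*Pla2g4e* libraries (log2 fold change −0.07, SE 0.08, adjusted p = 0.622 by edgeR). Per kb of exon, the ratio of *Cacna1h* to *Cacna1i* was 0.472, 0.505 and 0.600 in shCtrl and 0.857, 1.27 and 0.837 in sh*Pla2g4e* libraries.

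The Cav1 family of L-type channels showed no called gene by edgeR, voom or DESeq2, and 2 of its members, both higher and low in level, had an unadjusted p below 0.05. *Cacna1c*, its main brain and heart form, had 179, 172 and 150 CPM in shCtrl and 162, 161 and 143 CPM in sh*Pla2g4e* libraries (95% interval of the log2 fold change −0.29 to 0.08). *Cacna1d*, which opens at lower voltage, had 88.3, 88.7 and 91.5 CPM in shCtrl and 103, 93.8 and 89.8 CPM in sh*Pla2g4e* libraries (−0.08 to 0.26). For both genes the groups overlapped. The retinal gene *Cacna1f* had 1.46, 1.31 and 1.02 CPM against 2.38, 3.47 and 1.77 CPM (log2 fold change 1.02, SE 0.32, adjusted p = 0.0493 by edgeR), without overlap. The muscle gene *Cacna1s* had 1.12, 0.654 and 0.888 CPM against 1.59, 2.31 and 2.06 CPM (log2 fold change 1.15, SE 0.35, adjusted p = 0.0383 by edgeR), also without overlap, but 19.98% of its exon sequence is shared with an antisense gene.

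Per kb of exon, the Cav2 genes made up 47.9%, 49.5% and 49.7% of the alpha1 sum in shCtrl and 42.1%, 41.7% and 44.5% in sh*Pla2g4e* libraries. The Cav3 genes made up 41.1%, 39.0% and 39.1% and then 45.6%, 45.02% and 43.7%, and the Cav1 genes 11% to 11.5% and then 11.8% to 13.3%. None of the Cav1, Cav2 and Cav3 shares overlapped between groups, but they are parts of the same sum and so are not separate results. A lower Cav2 share by itself makes the other shares higher, without a higher level of those genes. The shares were not tested. In shCtrl libraries Cav2 exceeded Cav3 in all 3, and in sh*Pla2g4e* libraries it did so in replicate 3 alone. The alpha1 sum itself was 118 to 130 CPM per kb in shCtrl and 107 to 119 CPM per kb in sh*Pla2g4e* libraries.

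The alpha2delta genes encode large extracellular subunits, and among them *Cacna2d3* rose. It lies at chromosome 14, 28626900 to 29443821 on the minus strand. Its level was 91.3, 80.6 and 65.7 CPM in shCtrl and 122, 114 and 110 CPM in sh*Pla2g4e* libraries. The lowest sh*Pla2g4e* library was above the highest shCtrl library, with means of 115.5 ± 6.49 and 79.2 ± 12.9 CPM (SD, n = 3) and a log2 fold change of 0.55 (SE 0.10, adjusted p = 0.00230 by edgeR). Without shCtrl replicate 2 the adjusted p was 0.0152, and without sh*Pla2g4e* replicate 1 it was 0.0148. *Cacna2d1*, which encodes a binding site of gabapentin and was the highest of the 4 per kb of exon, had 299, 257 and 253 CPM in shCtrl and 325, 316 and 278 CPM in sh*Pla2g4e* libraries, which overlapped (log2 fold change 0.18, SE 0.09, adjusted p = 0.217 by edgeR). *Cacna2d2* had 38.9, 36.1 and 34.4 CPM in shCtrl and 29.7, 30.1 and 31.2 CPM in sh*Pla2g4e* libraries, without overlap (log2 fold change −0.26, SE 0.09, adjusted p = 0.0715 by edgeR). The low *Cacna2d4*, known from the retina, had 1.6, 1.91 and 1.42 CPM against 2.89, 2.40 and 3.09 CPM (log2 fold change 0.76, SE 0.27, adjusted p = 0.0817 by edgeR).

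The calcium channel beta genes encode the cytosolic subunits that bind the alpha1 pore, and none passed the test by edgeR, voom or DESeq2 (1, *Cacnb3*, had an unadjusted p below 0.05). *Cacnb3* had 149, 143 and 130 CPM in shCtrl and 118, 116 and 125 CPM in sh*Pla2g4e* libraries, without overlap (log2 fold change −0.23, SE 0.08, adjusted p = 0.0683 by edgeR, 0.00698 with the block). *Cacnb1* had means of 152.8 ± 22.0 and 157.8 ± 7.18 CPM (SD, n = 3), and *Cacnb4* had 145.9 ± 6.84 and 156.6 ± 12.3 CPM (SD, n = 3). The libraries of both genes overlapped, and their 95% intervals were −0.16 to 0.25 and −0.07 to 0.28. *Cacnb2*, lower than the others per kb of exon, had 36.2 ± 3.39 and 41.1 ± 2.39 CPM (SD, n = 3; adjusted p = 0.243 by edgeR). For *Cacnb4*, 16.0% of the exon sequence is shared with an antisense gene, and for *Cacnb2* 7.32%.

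**Figure D4:**
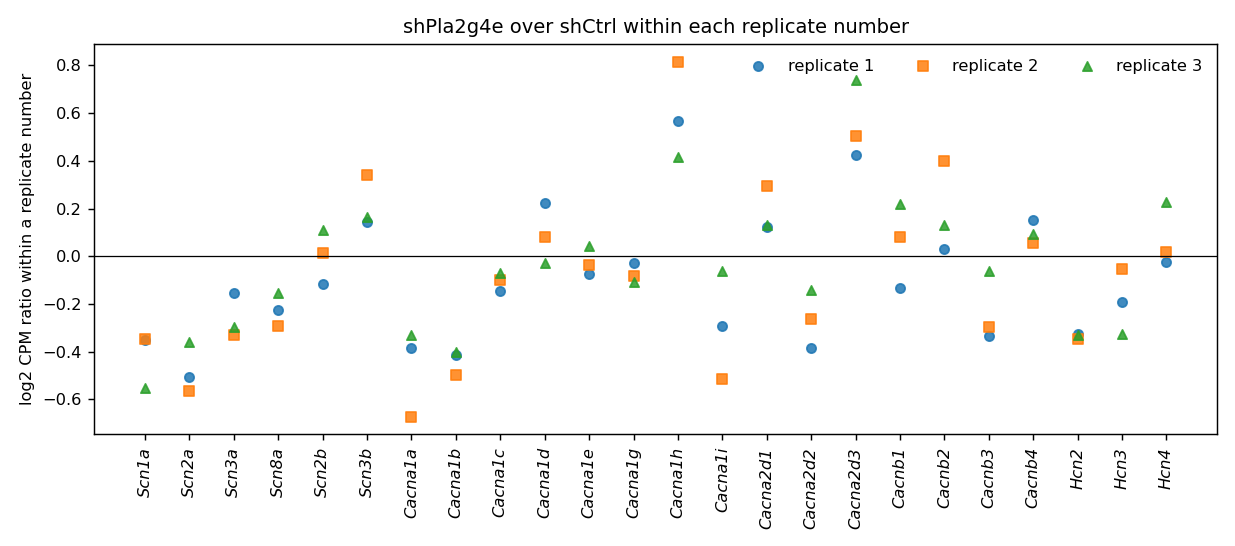
Log2 ratio of sh*Pla2g4e* over shCtrl CPM within each replicate number (y axis) for 24 abundant channel genes, 1 symbol per number. *Hcn2* has nearly equal ratios in all 3 (−0.35 to −0.33), and those of *Cacna1i* are spread from −0.52 to −0.06.

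None of the 4 HCN genes passed the test by edgeR or voom, 1 did so by DESeq2, and 2 had an unadjusted p below 0.05, all of these lower in sh*Pla2g4e* cultures. *Hcn2*, one of the main forms of the forebrain, had 74.7, 77.5 and 68.7 CPM in shCtrl and 59.5, 60.8 and 54.7 CPM in sh*Pla2g4e* libraries. These did not overlap, and 79.3% was left (log2 fold change −0.33, SE 0.08, adjusted p = 0.0144 by edgeR). *Hcn2* passed 0.01 with the block (0.000281), DESeq2 (0.00470), the robust fit of edgeR (0.00870) and no filter (0.00558). *Hcn3* had 68.4, 66.2 and 61.4 CPM against 59.9, 63.8 and 49.02 CPM, which overlapped (log2 fold change −0.18, SE 0.10, adjusted p = 0.267 by edgeR), and 17.1% of its exon sequence is shared with *Pklr* on the opposite strand. *Hcn4*, the pacemaker form of the heart, had 67.9, 56.5 and 46.8 CPM against 66.8, 57.2 and 54.7 CPM. Its groups overlapped fully (95% interval of the log2 fold change −0.19 to 0.32). Per kb of exon, shCtrl levels were 23.0 for *Hcn2*, 15.7 for *Hcn3* and 9.32 for *Hcn4*.

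Channel genes were also described by level, with a limit chosen after their values were seen. Of the 9 tested with a mean under 8 CPM, 8 had a log2 fold change above 0, with a median of 1.02, and *Scn7a* was the only one called. Among 9734 tested genes in the same range of levels, 62.0% lay above 0 and the median was 0.20. Of the 26 abundant channel genes, at means of 33.4 to 351 CPM, 16 lay below 0 and the median was −0.09. Among 6234 genes in that range 59.1% lay below 0, with a median of −0.05, and 9.72% were down-regulated and 3.06% up-regulated. The share of abundant channel genes below 0 was thus close to that of all genes at their level. The 4 down-regulated and 2 up-regulated genes of the 26 are to be read against those shares.

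**Figure D5:**
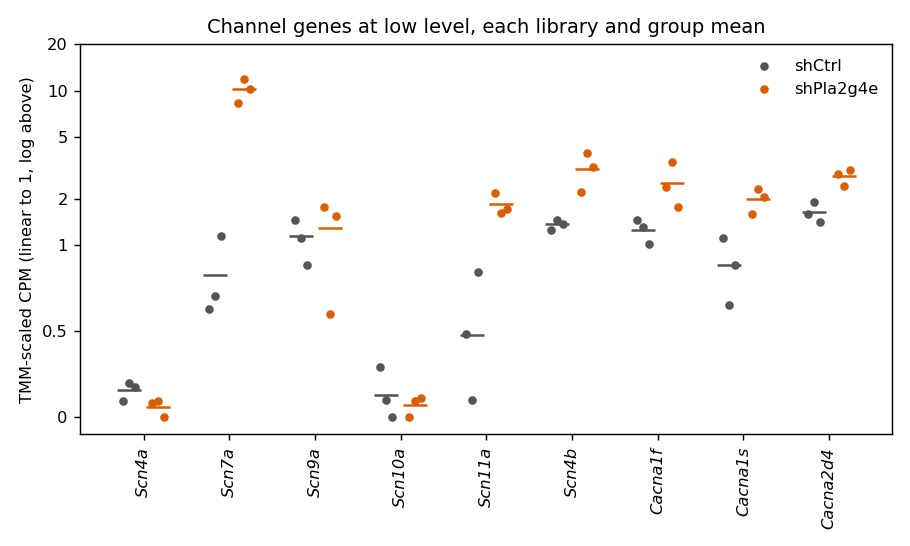
TMM-scaled CPM of 9 channel genes with a mean under 8 CPM in each library (axis linear to 1 and logarithmic above), with short bars for group means. *Scn7a* goes from 0.631 to 1.15 CPM in shCtrl (grey) to 8.37 to 11.9 CPM in sh*Pla2g4e* (orange), and *Scn4a* and *Scn10a* stay near 0 in both.

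Genes whose products bind, anchor or regulate these channels were grouped in 8 lists of 68 genes, of which 66 were tested. Among them 12 were down-regulated and 2 up-regulated (27 and 6 with the block), and the median log2 fold change was −0.15. These counts are to be read against 4.0% and 2.48% of the 21876 genes, or 9.02% and 6.5% with the block. The median of those genes was 0.03 without the block. For the anchors and the tethers, the shares among all genes at their levels are given beside the counts, for the fit without the block. No such shares are given for the other lists or for the block. Of 10 anchors of the axon initial segment and nodes, 4 fell by edgeR (9 with the block), 9 had an unadjusted p below 0.05 and a lower level, and none was higher at that p or by voom or DESeq2. *Ank2*, an ankyrin of the axon shaft, had means of 1199.6 ± 71.8 and 817.4 ± 69.9 CPM (SD, n = 3; log2 fold change −0.55, SE 0.09, adjusted p = 0.000460 by edgeR). *Trim46*, which organizes microtubules in the proximal axon, had 101.6 ± 3.23 and 74.0 ± 8.40 CPM (−0.46, SE 0.09, adjusted p = 0.00257 by edgeR). *Sptan1*, the alpha spectrin of the membrane skeleton, had 1568 ± 98.3 and 1198 ± 67.6 CPM (−0.39, SE 0.08, adjusted p = 0.00500 by edgeR). The fourth was *Kcnq3*, a potassium channel of the initial segment that was listed with the anchors. *Ank3*, *Nrcam* and *Nfasc* were not called by edgeR without the block (adjusted p = 0.0420, 0.0155 and 0.109) but fell with it. *Sptbn4* was not called in either fit (log2 fold change 0.02, SE 0.08, adjusted p = 0.917 by edgeR without the block). Among 2987 tested genes in the range of levels of the anchors, 13.0% were down-regulated, 32.4% were lower at an unadjusted p below 0.05, and the median was −0.08.

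Of 10 presynaptic proteins that tether calcium channels at the release site, 4 fell by edgeR (7 with the block), 7 had an unadjusted p below 0.05 and a lower level, and none was higher at that p or by voom or DESeq2. All 10 had fold changes below 0, with a median of −0.34. Among 2555 tested genes in their range of levels, 65.3% lay below 0, 12.7% were down-regulated, 32.5% were lower at an unadjusted p below 0.05, and the median was −0.08. *Bsn*, the active zone scaffold bassoon, fell from 800.7 ± 97.8 to 363.5 ± 44.9 CPM (SD, n = 3; log2 fold change −1.14, SE 0.11, adjusted p = 4.73e-06 by edgeR). *Rims1*, which binds Cav2 channels and draws them to the release site, fell from 224.2 ± 9.83 to 132.0 ± 17.7 CPM (−0.76, SE 0.10, adjusted p = 6.52e-05 by edgeR). *Erc1*, another scaffold, fell from 141.9 ± 12.05 to 96.0 ± 6.43 CPM (−0.56, SE 0.09, adjusted p = 0.000425 by edgeR).

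Among the other lists the calls were fewer. Of 8 gamma subunits and TARPs, *Cacng6* rose, from 1.66 ± 0.489 to 7.10 ± 1.62 CPM (SD, n = 3; log2 fold change 2.08, SE 0.25, adjusted p = 5.64e-05 by edgeR), and no other was called by edgeR, voom or DESeq2 (1 fell and 2 rose with the block). Of 12 tested channel inhibitors of the RGK family and other calcium channel regulators, *Calm3*, a calmodulin gene, and *Akap5*, which anchors kinases at L-type channels, fell by 0.44 and 0.70 on the log2 scale (adjusted p = 0.00180 and 0.000441 by edgeR). *Rrad*, an RGK inhibitor, rose from 3.03 ± 0.229 to 6.76 ± 1.85 CPM (SD, n = 3; log2 fold change 1.16, SE 0.22, adjusted p = 0.00246 by edgeR). With the block the RGK genes *Rem2* and *Gem* rose too (adjusted p = 0.00928 and 0.000657 by edgeR). In the sodium leak channel complex, *Nalcn*, the pore, fell from 99.2 ± 3.24 to 75.7 ± 2.58 CPM (SD, n = 3; −0.39, SE 0.08, adjusted p = 0.00301 by edgeR), 1 of 4 tested. With the block *Nalf1*, a subunit of the complex, also fell (adjusted p = 0.000526 by edgeR), and *Unc80*, another, rose (0.00516). Of 10 regulators of transcription and splicing known for sodium channel genes, *Rbfox3* fell (−0.41, SE 0.09, adjusted p = 0.00477 by edgeR), and with the block *Nova2* did as well (3.60e-05). *Rbfox3* is also among the pan-neuronal markers counted above as fallen, so that this is the same result. None of 8 HCN partners was called by edgeR, but 1 was by voom and by DESeq2, and none of 4 intracellular FGF homologous factors was called by any of these. With an unadjusted p below 0.05, 2 of each list were lower, and with the block 2 of each fell.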

How the data were processed

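RNA was measured in 3 shCtrl and 3 sh*Pla2g4e* libraries made with a stranded poly(A) kit. The authors aligned reads with STAR (2.7.0d per the submitters' processing notes, which also name FastQC 0.11.8), counted those on exons with featureCounts (1.6.0) and deposited raw counts per gene, 1 file per library, without normalization. Their methods name mm10 and GENCODE M18, whereas the file headers name GENCODE vM28 and coordinates are those of GRCm39. The counting command shows no option for strand, read pairs or multi-mapping reads. Reads of either strand can therefore count for a gene, each read of a pair can count by itself, and genes with near-identical stretches lose reads. Whether reads in exon sequence shared with an antisense gene were counted or dropped was not checked. Symbols, transcripts and UTRs came from GENCODE vM21 (GRCm38), which held 52081 of the 55357 gene identifiers.

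Genes reaching 6 reads in any library (21876) were fitted with edgeR 4.0.16 in R 4.3.3 (TMM, glmQLFit, glmQLFTest), with the study's filter and a threshold of 0.01 on the adjusted p. The fit was tested on simulated data. Tables were grouped by the treatment in the labels. The chi-square per gene was 6.03 to 15.4 between libraries of a group, so that no pair was the same library, and 19.1 to 38.0 between groups. TMM-scaled CPM, means, SDs and shares per exon length were computed from the counts. Counting error alone makes a gene with few reads imprecise, and values of genes under 8 CPM, a limit chosen after their values were seen, are the least reliable. Alternatives were limma 3.58.1 after voom (the study's test), DESeq2 1.42.0, other scalings, filters and thresholds, a robust fit, a replicate block and leaving out each library.

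Each group has replicates 1 to 3 in the labels. Over 10958 genes, libraries that share a number had correlated departures from their group mean (0.392, 0.189 and 0.462), whereas other pairs gave −0.392 to 0.106. Departures within a group cancel out, so that positive values for a shared number by themselves lower those of the other pairs. Replicate numbers were taken as pairs on this ground, from the same data that the block was then fitted to. The labels do not say what the numbers stand for. Blocked values are printed where they change a call. The rule names all channel genes, the target *Pla2g4e*, and at most 3 called genes of each partner list. *Kcnq3*, *Sptbn4*, *Xirp2*, *Slc17a7*, *Slc17a6* and the genes called with the block alone in the partner lists were added to it with their values known. Single values of some channel genes are not reported here, in the text or the figures, but these genes stay in the fits, sums and counts. The members and the partner and marker lists were chosen with earlier results of these data known.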

Additional observations from a re-analysis of the deposited data

How the results depend on the processing

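The 4 down-regulated and 3 up-regulated channel genes kept their direction under every alternative run. The count of down-regulated channel genes was 10 with the replicate block, and the count of up-regulated ones was 6 with the block, 5 with no filter and 7 at an adjusted p below 0.05. Over all genes, 3395 were called with the block, 2349 with no filter and 2813 at 0.05, beside 1419. Of the partner genes, 27 were down-regulated with the block, 22 with no filter and 21 at 0.05, beside 12, and 6 up-regulated with the block and 4 at 0.05, beside 2. The cause of these differences was not tested. The block treats libraries of a number as pairs, a choice made from their shared deviations in the same data, and 0.05 is the looser threshold. The block took away no call of a channel gene.

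Leaving out a library gave 1 to 4 down-regulated and 2 to 4 up-regulated channel genes, 695 to 1613 called genes, and 5 to 17 down-regulated and 1 to 3 up-regulated partner genes. Down-regulated channel genes numbered 1 in each of the fits that lacked shCtrl replicate 1, shCtrl replicate 2 or sh*Pla2g4e* replicate 2. All called genes numbered 928, 695, 854 and 931 without shCtrl replicate 1, shCtrl replicate 2, sh*Pla2g4e* replicate 1 and sh*Pla2g4e* replicate 2. Partner genes that fell numbered 8 without shCtrl replicate 1, 5 without shCtrl replicate 2, 8 without sh*Pla2g4e* replicate 1 and 6 without sh*Pla2g4e* replicate 2, and 1 partner gene rose without shCtrl replicate 2 or sh*Pla2g4e* replicate 1. These fits hold fewer samples.

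The genes named here that changed sign were all without a call, and their log2 fold changes were at most about 1 SE from 0. The log2 fold change of *Scn2b* was 0.0030 with voom, 0.032 with upper-quartile factors, 0.073 with library size only, 0.016 with at least 10 reads in every library, 0.0095 with filterByExpr and 0.0010 with the replicate block. That of *Cacna1e* was 0.011 with upper-quartile factors and 0.052 with library size only, and that of *Cacna1g* 0.0025 with library size only. With 1 library left out, the values ran from −0.069 to 0.088 for *Scn2b*, −0.073 to 0.015 for *Cacna1e*, −0.062 to 0.21 for *Hcn4*, −0.060 to 0.15 for *Cacnb1* and −0.12 to 0.52 for *Scn9a*. Scaling by library size only moved the median of all genes from 0.03 to 0.10. Among genes with few reads, a log2 fold change of 1.91 (*Scn11a*, SE 0.49) did not pass in the edgeR fit used for the calls, though it did under some alternatives. Genes without a call are therefore not shown to be unchanged.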
